A study of Mus musculus with 6 samples.

Results

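The p53 target genes are genes that the transcription factor p53 is known to switch on directly, and 40 of them were followed here across mouse embryonic stem cells (ESCs) in which a subunit of the NuRD chromatin complex had been knocked down. A gene was measured where a probe set of the array carried its symbol and no other, and where a gene had several such probe sets the one brightest on average represented it. By this rule 37 of the 40 were measured, among 22180 genes in all. Bax, Gdf15 and Ddb2 were not analysed here.

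p53 is a stress-activated transcription factor that binds DNA as a tetramer, at response elements made of a pair of 10-base elements. In unstressed cells the ubiquitin ligase Mdm2, itself the product of a p53 target gene, keeps its level low. Its targets arrest the cell cycle, start apoptosis, aid DNA repair and alter metabolism, and in ESCs p53 activation is known to promote differentiation. Chd4 is the chromatin-remodelling ATPase of NuRD, a complex that also removes histone acetyl groups, and Mbd3 is a structural subunit of it. By its title, the study asked whether Chd4 acts on p53 during neural differentiation.

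Total RNA was hybridised to Affymetrix Mouse Gene ST arrays, 1 array for each of 6 groups. ESCs infected with lentivirus carrying Chd4 shRNA (Chd4-knockdown cells), Mbd3 shRNA (Mbd3-knockdown cells) or control shRNA (control cells) were sampled at day 4 and at day 0. At day 4 the cells had been re-aggregated for neural differentiation in low-adhesion plates, in medium with KSR (a serum replacement). At day 0 they were ESCs on gelatin, in medium with serum and LIF. All 3 lines thus carried a lentiviral shRNA, and the labels give neither a clone nor the number of cultures behind an array. No group was repeated, so the differences below are described without a test, and "higher" and "lower" refer to these arrays. In bulk RNA, fewer cells of a type and less RNA per cell cannot be told apart.

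The array medians lay between 39.6 and 41.4 intensity units. An intensity under the highest of them is treated here as a bound: 34 of the 37 members were above it in all arrays, 2 were below it in some, and Fas, which encodes a death receptor, was below it in all 6. Chd4 intensity in Chd4-knockdown cells was 71.3% of that in control cells at day 4 and 29.8% at day 0. Mbd3 intensity in Mbd3-knockdown cells was 75.5% of control at day 4 and 43.0% at day 0. Knockdown was therefore weaker by this measure at day 4, the day on which the members differed most. The day 4 lines also differed in cell state. The summed intensity of 8 ESC markers, of 8 listed, was 5531 in Chd4-knockdown, 5514 in Mbd3-knockdown and 2944 in control cells at day 4, against 8407, 8317 and 8377 in the same lines at day 0. At day 4, 7 of these 8 were above control in each knockdown line. Sox2, a bright one, was below it, with 1131.2 in Chd4-knockdown and 1316.2 in Mbd3-knockdown against 1415.8 in control cells. The sum of 8 of 8 early neural markers was 660 in Chd4-knockdown, 970 in Mbd3-knockdown and 4837 in control cells at day 4, against 322, 353 and 402 at day 0. That of 6 of 6 neuron markers was 582, 712 and 1737 at day 4 in the same order of lines, against 695, 477 and 571 at day 0. Sums for fibroblast markers (264 to 365 over the 6 arrays, 6 genes), endoderm markers (179 to 233, 4 genes) and mesoderm markers (151 to 208, 4 genes) varied less. Of these, 3 fibroblast markers and 1 mesoderm marker were below 41.4 in all arrays, and no value on this scale can be read as absence. Within the endoderm sum at day 4, Gata6 had 64.4 in Chd4-knockdown, 29.9 in Mbd3-knockdown and 29.0 in control cells. Foxa2 had 66.3, 83.8 and 116.2 in the same order. The sum of 4 trophectoderm markers was 217 in Chd4-knockdown, 303 in Mbd3-knockdown and 165 in control cells at day 4, against 314, 373 and 278 at day 0. Within it at day 4, Tfap2c had 97.2, 141.8 and 54.4 in the same order, and Krt7 55.1, 91.7 and 47.3. Cdx2, with 36.2, 38.9 and 39.1, was not above control, and Elf5 was below 41.4 in all arrays. The ESC, neural and neuron sums thus differed between both knockdown arrays and the control array at day 4. The trophectoderm sum differed there mainly through Tfap2c and Krt7, and was also above control at day 0. The part of these sums in the day 4 results below was not tested.

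The promoters of Cdkn1a, Ccng1 and Rps27l are printed first because, in the windows searched, they hold the closest matches to the p53 response element. Those of Cd80, with a looser match, and Epha2, with none by the search described below, are printed for their large differences at day 4. Each is the RefSeq sequence (GRCm38.p6) of 250 bases before to 50 after a transcription start, 5′ to 3′ on the gene's strand. Capitals mark the paired 10-base elements. Cdkn1a, which encodes the cell cycle inhibitor p21, is at chr17:29090729-29091028 (plus strand). Ccng1 (cyclin G1) is at chr11:40755237-40755536 (minus strand), Rps27l (a ribosomal protein paralog) at chr9:66946163-66946462 (plus strand), Cd80 (a costimulatory ligand for T cells) at chr16:38458683-38458982 (plus strand) and Epha2 (an ephrin receptor kinase) at chr4:141300971-141301270 (plus strand).
Cdkn1a: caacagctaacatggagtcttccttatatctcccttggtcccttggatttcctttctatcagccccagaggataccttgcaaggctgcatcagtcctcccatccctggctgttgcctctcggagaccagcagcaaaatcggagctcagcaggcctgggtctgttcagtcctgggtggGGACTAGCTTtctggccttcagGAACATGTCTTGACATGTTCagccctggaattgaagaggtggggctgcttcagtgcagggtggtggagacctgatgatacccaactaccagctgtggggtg
Ccng1: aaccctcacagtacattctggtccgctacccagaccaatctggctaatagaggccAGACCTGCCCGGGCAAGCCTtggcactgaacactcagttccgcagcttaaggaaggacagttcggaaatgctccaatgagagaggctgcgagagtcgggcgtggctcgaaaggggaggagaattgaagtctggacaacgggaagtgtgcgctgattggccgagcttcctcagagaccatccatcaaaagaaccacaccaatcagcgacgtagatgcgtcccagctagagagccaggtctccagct
Rps27l: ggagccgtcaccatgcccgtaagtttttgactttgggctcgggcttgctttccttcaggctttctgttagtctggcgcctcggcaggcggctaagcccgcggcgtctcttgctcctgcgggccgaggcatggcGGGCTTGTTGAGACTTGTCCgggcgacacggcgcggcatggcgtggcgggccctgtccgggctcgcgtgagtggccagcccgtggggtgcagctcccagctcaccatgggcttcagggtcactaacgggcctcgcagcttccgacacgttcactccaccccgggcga
Cd80: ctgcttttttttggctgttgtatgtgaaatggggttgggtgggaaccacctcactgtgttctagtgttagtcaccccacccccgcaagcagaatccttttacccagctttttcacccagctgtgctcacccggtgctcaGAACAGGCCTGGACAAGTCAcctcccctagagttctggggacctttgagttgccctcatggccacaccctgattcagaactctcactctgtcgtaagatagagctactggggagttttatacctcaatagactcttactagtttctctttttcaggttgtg
Epha2: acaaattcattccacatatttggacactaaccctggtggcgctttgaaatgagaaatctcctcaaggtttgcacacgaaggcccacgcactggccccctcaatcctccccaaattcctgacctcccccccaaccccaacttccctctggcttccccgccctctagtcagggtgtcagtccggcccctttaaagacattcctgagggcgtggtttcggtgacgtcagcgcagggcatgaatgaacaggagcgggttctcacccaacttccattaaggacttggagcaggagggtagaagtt

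The table of promoters used held 39 starts of 27 measured members, among 32851 starts in all. The p53 consensus was searched by its name, which is palindromic and so is read on both strands at once, as 10-base elements and as pairs of them with 0 to 13 bases between. The fixed C and G of each element had to be present, so a mismatch could fall only at its other positions. The number of mismatches allowed was chosen after the matches had been seen. A single element without mismatch was in 9 of the 39 windows (23.1%), from 8 genes, against 8.36% of all windows. A pair without mismatch was in 1, that of Cdkn1a, where it begins 73 bases upstream of the start with 12 bases between its elements, against 0.0731% of all windows. With up to 1 mismatch there were 3 (7.69%), those of Ccng1, Cdkn1a and Rps27l, against 0.627% of all windows. Cdkn1a has a second such pair 51 bases upstream with 0 bases between its elements, and the pairs of Ccng1 and Rps27l, also with 0 bases between, begin 195 and 117 bases upstream. Cdkn1a and Rps27l each have another listed start, with windows chr17:29093519-29093818 and chr9:66945836-66946135. Neither of those windows held an element without mismatch or a pair, so these distances refer to the printed starts only. With up to 2 mismatches there were 5 (12.8%), adding Cd80 at 111 bases upstream and Sesn1, against 4.09% of all windows. The core CATG alone, which overlaps many elements, was in 15 (38.5%) of the members' windows and 61.1% of all windows. A match is a description of these letters and not a binding site, and many known p53 response elements lie in introns or farther upstream, outside the windows searched.

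At day 4, most of the 37 p53 target genes measured were higher in each knockdown line than in control cells. The list was chosen with earlier results of these data known. The 18 further targets described below had lower medians, 0.06 in Chd4-knockdown and 0.21 in Mbd3-knockdown cells. In Chd4-knockdown cells 32 of the 37 members were above control and their median log2 difference was 0.62, while 50.4% of all genes were above control with a median of 0.00. These counts include Fas. In Mbd3-knockdown cells 31 of 37 were above control with a median of 0.53, beside 49.9% of all genes and a median of 0.00. At least 2-fold higher in Chd4-knockdown cells were 9 members, among 3.15% of all genes, and 0 were 2-fold lower, among 4.11% of all genes. At least 2-fold higher in Mbd3-knockdown cells were 6 members, among 2.11% of all genes, and 0 were 2-fold lower, among 3.0%. With a limit of 1.5-fold, 19 members were higher in Chd4-knockdown cells (7.08% of all genes) and 1 was lower (9.62%). By that limit 16 members were higher in Mbd3-knockdown cells (4.99%) and 0 were lower (8.12%). Since nearly all members are bright genes, the 13037 genes with a mean at the median or above are a closer background. Of those, 4.89% were 2-fold higher in Chd4-knockdown and 3.51% in Mbd3-knockdown cells at day 4, and their median differences were -0.03 and -0.04. By the 1.5-fold limit, 10.9% of them were higher and 14.7% lower in Chd4-knockdown cells, and 8.19% and 12.3% in Mbd3-knockdown cells. Both comparisons use the same control array, so they are not independent of each other.

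**Figure D1:**
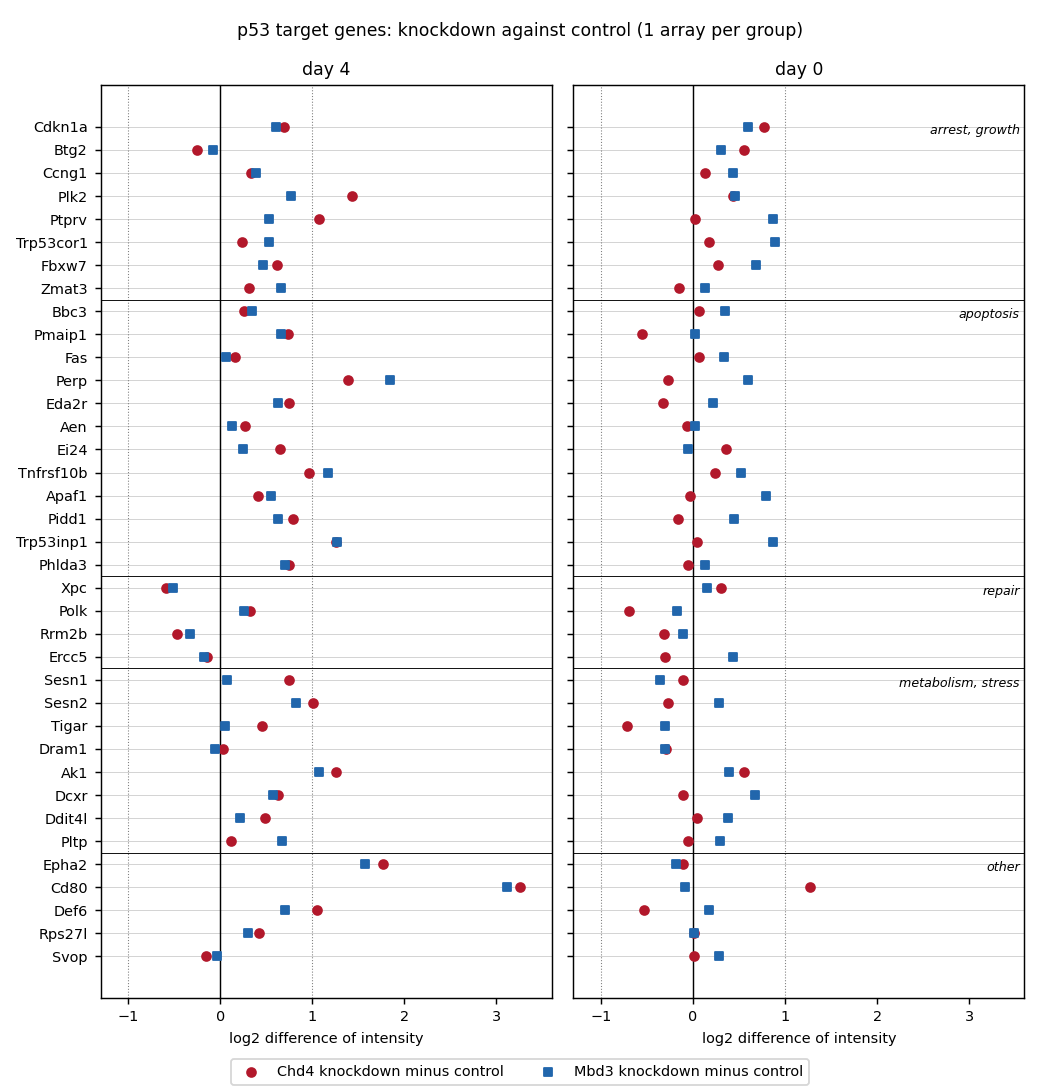
Log2 difference of intensity for each of the 37 measured p53 target genes, Chd4 knockdown minus control (red circles) and Mbd3 knockdown minus control (blue squares), at day 4 (left) and day 0 (right), grouped by role; dotted lines mark 2-fold. At day 4 most members lie right of 0 in both lines, with Cd80 farthest, where the differences plotted (3.25 and 3.12) stand against a control value below 41.4 and count as at least 2.99 and 2.85, whereas at day 0 the Chd4-knockdown points lie on both sides of 0.

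At day 0 the lines differed from each other. In Chd4-knockdown ESCs the members sat around control: 18 of 37 were above it, the median difference was -0.03, and 46.9% of all genes were above control with a median of -0.01. A single member, Cd80, was 2-fold higher (0.419% of all genes) and 0 were 2-fold lower (0.343%). By the 1.5-fold limit 2 were higher, Cd80 and Cdkn1a (2.46% of all genes), and 2 were lower, Polk and Tigar (2.17%). In Mbd3-knockdown ESCs 29 of 37 were above control with a median of 0.29, beside 42.6% of all genes and a median of -0.03. No member was 2-fold higher (0.221% of all genes) or 2-fold lower (0.189%). By the 1.5-fold limit 8 were higher (1.80% of all genes) and 0 lower (1.24%), and these 8 were Trp53cor1, Ptprv, Trp53inp1, Apaf1, Fbxw7, Dcxr, Perp and Cdkn1a. Of the 13037 genes with a mean at the median or above, 2.98% were 1.5-fold higher and 1.99% lower there.

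**Figure D2:**
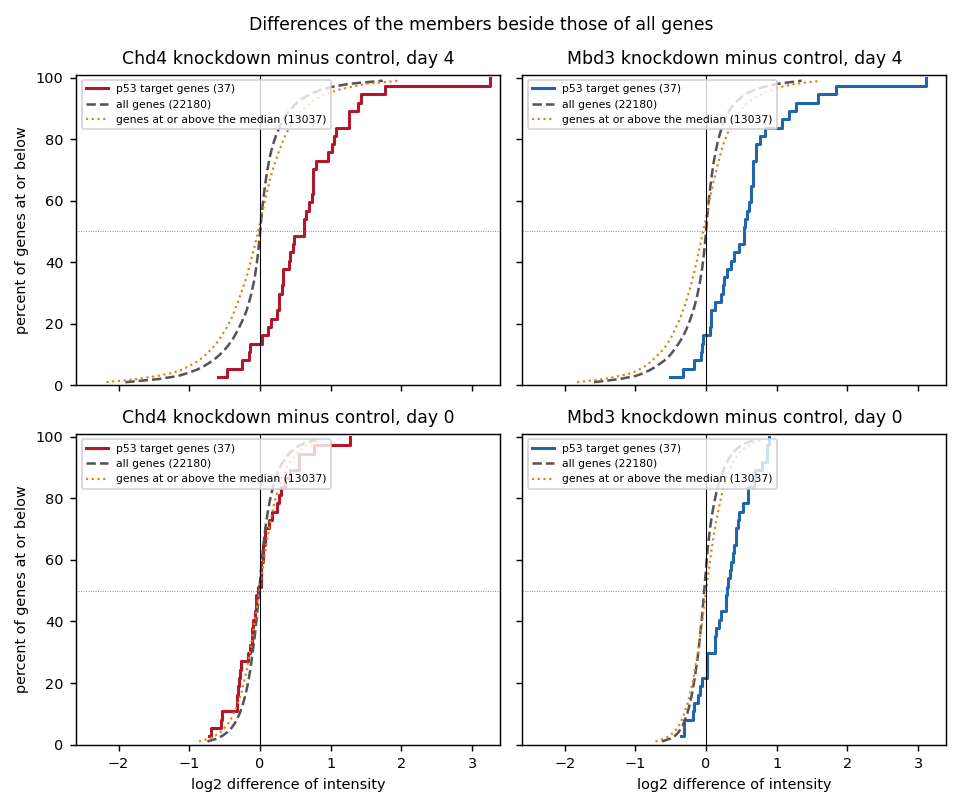
Cumulative distribution of the log2 difference of intensity in the 4 knockdown comparisons, for the p53 target genes (solid steps), all 22180 genes (dashed) and the 13037 genes with a mean at the median or above (dotted). The members' steps lie right of both backgrounds at day 4 in both lines and at day 0 in Mbd3-knockdown cells, and along them at day 0 in Chd4-knockdown cells.

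Set directly against each other, the knockdown lines differed less over the members at day 4 than at day 0. At day 4 the median of Chd4 knockdown minus Mbd3 knockdown was 0.08, with 2 members 1.5-fold higher in Chd4-knockdown cells, Plk2 and Sesn1 (1.69% of all genes), and 0 lower (1.10%). At day 0 the median was -0.29, and 9 members were 1.5-fold lower in Chd4-knockdown than in Mbd3-knockdown cells (2.32% of all genes), among them Perp at -0.88, Ptprv at -0.84, Trp53inp1 at -0.83 and Apaf1 at -0.82. Only Cd80 was 1.5-fold higher in Chd4-knockdown cells at day 0 (1.98% of all genes), by 1.35.

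By mean absolute log2 difference over the 4 knockdown comparisons, the arrest and growth control genes were led by Plk2 (0.77), Cdkn1a (0.67) and Ptprv (0.62). The order varied between comparisons, and in Mbd3-knockdown cells at day 0 Trp53cor1 was highest at 0.89. Of the 8 measured, 7 were above control in each line at day 4, with medians of 0.47 in Chd4-knockdown and 0.53 in Mbd3-knockdown cells, and 7 and 8 were above control at day 0, with medians of 0.22 and 0.53. Cdkn1a had 589.1 in Chd4-knockdown and 557.0 in Mbd3-knockdown cells against 364.6 in control cells at day 4, and 689.6 and 611.8 against 404.4 at day 0. It was the one member with a 1.5-fold difference in both lines on both days, by 0.69 and 0.61 at day 4 and by 0.77 and 0.60 at day 0, and it differed by no more than 0.23 between the days in any line. Plk2, a polo-like kinase, had 431.2 in Chd4-knockdown and 271.4 in Mbd3-knockdown cells against 159.8 in control cells at day 4, and 612.5 and 625.7 against 455.1 at day 0. The Plk2 differences at day 4 were 1.43 and 0.76, and the day 4 control array was the lowest of the 6. Ptprv, a receptor-type tyrosine phosphatase of the mouse, had 90.9 in Chd4-knockdown and 62.7 in Mbd3-knockdown cells against 43.3 in control cells at day 4, and 80.3 and 144.3 against 79.3 at day 0. Its highest array was thus the day 0 Mbd3-knockdown one, 0.86 above control.

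Trp53cor1, a long noncoding RNA (lincRNA-p21) transcribed beside Cdkn1a, had 166.4 in Chd4-knockdown and 204.1 in Mbd3-knockdown cells against 141.4 in control cells at day 4, and 103.3 and 169.9 against 91.9 at day 0. It was brightest in Mbd3-knockdown cells on both days, and it was higher at day 4 than at day 0 in all 3 lines. Ccng1, the cyclin G1 gene, had 2184.6 in Chd4-knockdown and 2275.9 in Mbd3-knockdown cells against 1738.3 in control cells at day 4, and 2034.5 and 2504.0 against 1859.6 at day 0. All its differences from control were between 0.13 and 0.43. Fbxw7, the substrate-recognition subunit of a ubiquitin ligase, was 0.62 and 0.46 above control at day 4 and 0.27 and 0.69 at day 0 in Chd4- and Mbd3-knockdown cells. Btg2, an antiproliferative gene, was at -0.25 and -0.08 at day 4 and at 0.55 and 0.30 at day 0 in Chd4- and Mbd3-knockdown cells. Zmat3, an RNA-binding zinc finger gene, was 0.31 and 0.66 above control at day 4.

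The apoptosis genes were higher in both knockdown arrays than in the control array at day 4. Without Fas, which was below 41.4 in every array, all 11 were above control in both knockdown lines, with medians of 0.74 in Chd4-knockdown and 0.63 in Mbd3-knockdown cells, against 4 and 10 of 11 above control at day 0 with medians of -0.06 and 0.35. Perp, a tetraspan membrane protein of desmosomes, had 137.7 in Chd4-knockdown and 188.1 in Mbd3-knockdown cells against 52.5 in control cells at day 4, and 227.0 and 416.9 against 275.0 at day 0. Its day 4 differences were 1.39 and 1.84, although all 3 lines were dimmer at day 4 than at day 0. Trp53inp1, a nuclear protein that promotes autophagy and cell death, had 994.0 in Chd4-knockdown and 1003.1 in Mbd3-knockdown cells against 416.5 in control cells at day 4, and 845.9 and 1499.3 against 824.1 at day 0. The day 4 differences of Trp53inp1 were nearly equal, 1.26 and 1.27, whereas at day 0 the differences were 0.04 in Chd4-knockdown and 0.86 in Mbd3-knockdown cells. Tnfrsf10b, the mouse receptor of the death ligand TRAIL, had 650.3 in Chd4-knockdown and 749.8 in Mbd3-knockdown cells against 332.8 in control cells at day 4, and 591.8 and 721.4 against 502.0 at day 0. It was above control in all 4 comparisons, by 0.97 and 1.17 at day 4.

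The BH3-only genes, whose products release the brake on mitochondrial apoptosis, differed from each other. Pmaip1 (Noxa) had 128.0 in Chd4-knockdown and 121.3 in Mbd3-knockdown cells against 76.9 in control cells at day 4, and 85.2 and 126.5 against 124.7 at day 0. It was 0.74 and 0.66 above control at day 4, and at day 0 the Chd4-knockdown array was 0.55 below control. Bbc3 (Puma) had 63.6 in Chd4-knockdown and 67.5 in Mbd3-knockdown cells against 52.9 in control cells at day 4, and 63.0 and 76.6 against 60.1 at day 0. The largest Bbc3 difference from control was 0.35. Among the others, Pidd1, a death-domain scaffold, was 0.79 and 0.63 above control at day 4, Phlda3, an inhibitor of AKT, 0.75 and 0.71, and Eda2r, a receptor of the TNF family, 0.74 and 0.63. Apaf1, the core of the apoptosome, was 0.41 and 0.55 above control at day 4, and at day 0 it was at -0.03 in Chd4-knockdown and 0.79 in Mbd3-knockdown cells. Ei24, which encodes a membrane protein of the endoplasmic reticulum, and the nuclease gene Aen were 0.65 and 0.26 above control in Chd4-knockdown cells and 0.24 and 0.13 in Mbd3-knockdown cells at day 4.

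**Figure D3:**
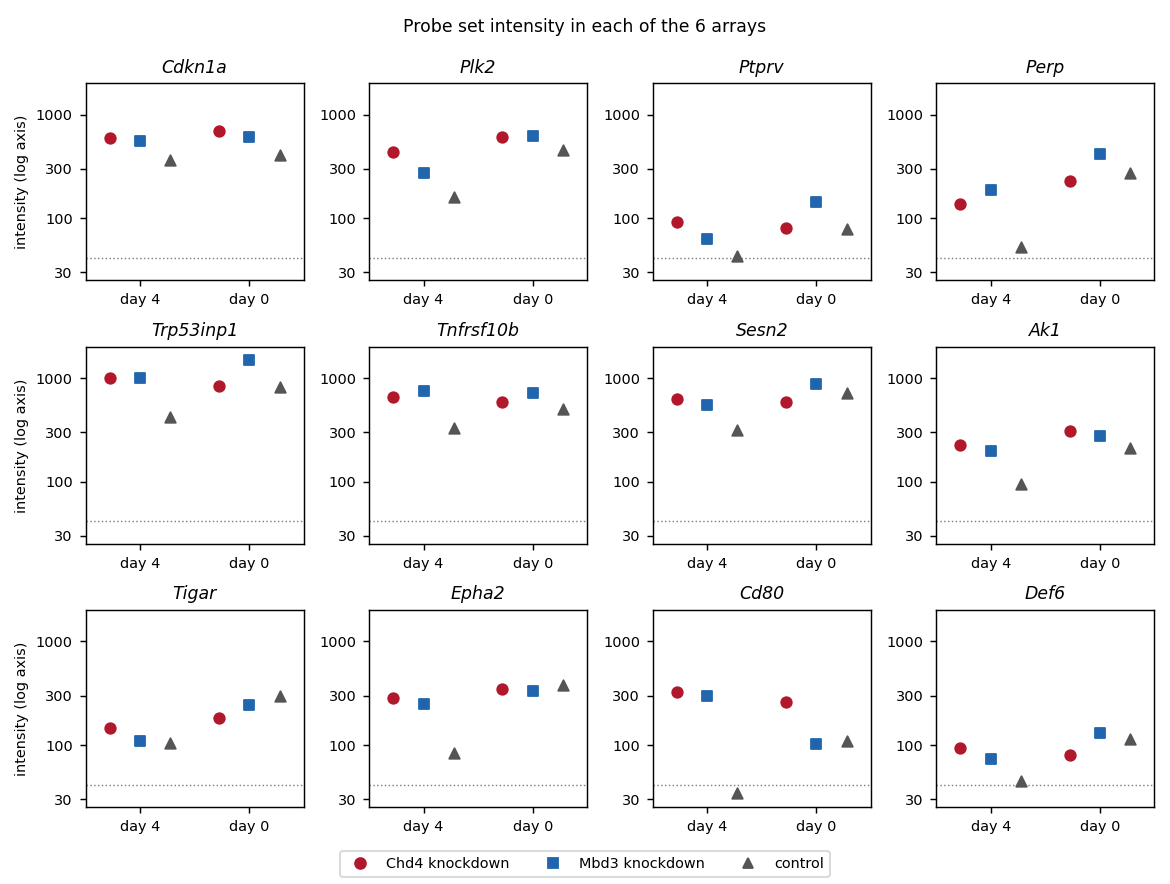
Probe set intensity (log axis) of 12 p53 target genes in each of the 6 arrays, Chd4 knockdown (red circles), Mbd3 knockdown (blue squares) and control (grey triangles), at day 4 (left in each panel) and day 0 (right); the dotted line is the highest array median, 41.4. The panels show Cdkn1a and the members at least 2-fold different in a comparison with control or between days, so they were picked from these same values. At day 4 the control array is the lowest of the 3 in each of these 12 panels, and Cd80 in control cells falls below the dotted line. Not shown are Btg2, Xpc, Rrm2b, Ercc5 and Svop, where the control array was the highest of the 3 at day 4.

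The DNA repair and nucleotide supply genes did not share this pattern. Of the 4 measured, 1 was above control in each line at day 4, with medians of -0.30 in Chd4-knockdown and -0.25 in Mbd3-knockdown cells, and 1 and 2 were above control at day 0 with medians of -0.31 and 0.02. Xpc, the damage sensor of nucleotide excision repair, was at -0.59 and -0.51 at day 4 and at 0.30 and 0.15 at day 0, and it was the 1 member at least 1.5-fold lower in a knockdown line at day 4. Rrm2b, a subunit of ribonucleotide reductase, was below control in all 4 comparisons, at -0.46 and -0.33 at day 4 and -0.32 and -0.11 at day 0. Polk, a translesion polymerase, was 0.32 and 0.25 above control at day 4 but at -0.70 in Chd4-knockdown cells at day 0. Ercc5, an excision repair endonuclease, was at -0.14 and -0.18 at day 4, and at -0.31 and 0.43 at day 0.

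Among the 8 metabolism, oxidative stress and autophagy genes, 8 were above control in Chd4-knockdown and 7 in Mbd3-knockdown cells at day 4, with medians of 0.56 and 0.40, against 2 and 5 at day 0 with medians of -0.11 and 0.29. Ak1, an adenylate kinase, had 225.5 in Chd4-knockdown and 198.7 in Mbd3-knockdown cells against 94.3 in control cells at day 4, and 310.3 and 277.0 against 211.4 at day 0. It was above control in all 4 comparisons, by 1.26 and 1.07 at day 4. Sesn2, a sestrin that restrains mTORC1 under stress, had 629.5 in Chd4-knockdown and 554.3 in Mbd3-knockdown cells against 312.0 in control cells at day 4, and 592.8 and 867.9 against 715.1 at day 0. Its day 4 differences were 1.01 and 0.83, with the Chd4-knockdown array below control at day 0. Tigar, a fructose bisphosphatase that restrains glycolysis, had 145.5 in Chd4-knockdown and 109.5 in Mbd3-knockdown cells against 105.8 in control cells at day 4, and 181.9 and 241.0 against 298.7 at day 0. Tigar was low in all 3 lines at day 4 and was lower in both knockdown lines than in control at day 0. The paralog Sesn1 was 0.75 above control in Chd4-knockdown cells at day 4 and 0.07 in Mbd3-knockdown cells. The carbonyl reductase gene Dcxr was 0.63 and 0.58 above control at day 4, and the mTORC1 inhibitor gene Ddit4l 0.48 and 0.22. Pltp, a phospholipid transfer protein gene, was 0.11 and 0.67 above control at day 4, and Dram1, a lysosomal membrane protein gene, was at 0.03 and -0.05.

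Among genes outside the classical arrest and death programmes, Cd80, Epha2 and Def6 were higher in both knockdown lines at day 4. Cd80 had 328.8 in Chd4-knockdown and 299.3 in Mbd3-knockdown cells against 34.5 in control cells at day 4, and 261.7 and 102.7 against 108.8 at day 0. Because the day 4 control value lies below 41.4, Cd80 was at least 7.94-fold higher in Chd4-knockdown and at least 7.22-fold higher in Mbd3-knockdown cells at day 4. At day 0 it was 2.41-fold higher in Chd4-knockdown cells and near control in Mbd3-knockdown cells. Epha2 had 286.3 in Chd4-knockdown and 250.3 in Mbd3-knockdown cells against 83.8 in control cells at day 4, and 349.3 and 331.1 against 377.1 at day 0. The day 4 control array thus stood apart from the other 5, giving differences of 1.77 and 1.58. Def6, a guanine nucleotide exchange factor gene of lymphocytes, had 92.7 in Chd4-knockdown and 72.9 in Mbd3-knockdown cells against 44.9 in control cells at day 4, and 79.6 and 130.5 against 115.4 at day 0. It was 1.05 and 0.70 above control at day 4 and 0.54 below control in Chd4-knockdown cells at day 0. Rps27l, whose promoter is printed above, was 0.42 and 0.30 above control at day 4 and within 0.02 of control at day 0. Svop, a transporter-like gene of synaptic vesicles, lay near the highest array median, with 45.8 in Chd4-knockdown and 49.5 in Mbd3-knockdown cells against 50.9 in control cells at day 4, and 41.2 and 49.6 against 40.8 at day 0. A dimmer probe set of Svop ran the other way at day 4. It had 39.7 in Chd4-knockdown and 38.6 in Mbd3-knockdown cells against 33.0 in control cells, all below 41.4.

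Between the days, the members were lower at day 4 in control cells and nearly level in Chd4-knockdown cells. The control difference uses the same day 4 control array as the day 4 comparisons above, so it is not independent of them. In Chd4-knockdown cells 21 of 37 were above their day 0 value (44.0% of all genes), with a median log2 difference of 0.09, and 0 were 2-fold higher or lower, among 1.03% and 0.699% of all genes. In Mbd3-knockdown cells 8 of 37 were above day 0 (48.0% of all genes), with a median of -0.24. A single member, Cd80, was 2-fold higher there (0.965% of all genes) and 4 were 2-fold lower, Plk2, Ptprv, Perp and Tigar (0.663%). In control cells 7 of 37 were above day 0 (41.5% of all genes), with a median of -0.43, 0 were 2-fold higher (5.08% of all genes) and 8 were 2-fold lower (2.93%). Those 8 were Perp at -2.39, Epha2 at -2.17, Cd80, which was at least 2.62-fold lower, Plk2 at -1.51, Tigar at -1.50, Def6 at -1.36, Sesn2 at -1.20 and Ak1 at -1.16. Of the 13037 genes with a mean at the median or above, 7.88% were 2-fold higher and 4.98% lower in control cells. Of the 11 apoptosis genes without Fas, 0 were above day 0 in control cells, with a median of -0.59. The medians over all genes were -0.02 in Chd4-knockdown, -0.01 in Mbd3-knockdown and -0.04 in control cells.

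**Figure D4:**
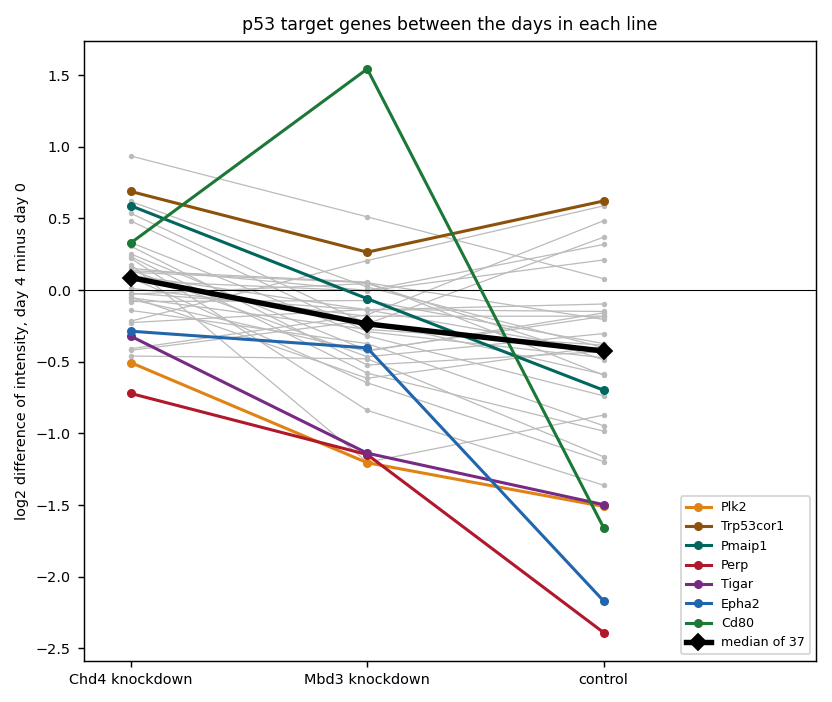
Log2 difference of intensity, day 4 minus day 0, in Chd4-knockdown, Mbd3-knockdown and control cells; each thin line joins the values of 1 of the 37 p53 target genes, 7 members are coloured, and black diamonds are the medians. The medians are 0.09, -0.24 and -0.43, and Perp and Epha2 lie lowest in control cells.

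The day differences of separate lines share no array and can be set side by side. Over the 37 members, the day difference in Chd4-knockdown cells lay above that in control cells for 32 (86.5%), beside 52.2% of all genes. That in Mbd3-knockdown cells lay above that in control cells for 23 (62.2%), beside 54.3% of all genes. By construction, these are also the counts of members whose difference from control was higher at day 4 than at day 0. Pearson's r between the Chd4-knockdown and control day differences was 0.39 across the members and 0.23 across all genes, and between Mbd3-knockdown and control 0.39 and 0.52, where genes are not independent replicates. Of the 15 members at least 1.5-fold lower at day 4 in control cells, whose median there was -1.16, 1 was lower by that much in Chd4-knockdown cells and 6 in Mbd3-knockdown cells, with medians of 0.09 and -0.48. Of the 1557 genes of the whole array chosen by the same limit, 14.9% were lower by that much in Chd4-knockdown and 24.5% in Mbd3-knockdown cells. The knockdown-minus-control differences at the 2 days likewise share no array. In the Mbd3-knockdown line 25 members were above control on both days, of 31 at day 4 and 29 at day 0, beside 4728 of all 22180 genes. In the Chd4-knockdown line 15 were above control on both days, of 32 at day 4 and 18 at day 0, beside 5233 of all genes. These overlaps depend on the daily totals, so they do not by themselves show that a difference persisted gene by gene.

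A test was possible only for effects taken as shared by both days, or by the 3 lines, with a limma fit of shRNA and day as additive effects over the 6 arrays (2 residual degrees of freedom, 13037 genes, 36 members). At an adjusted p under 0.05 it called 0 members in each contrast, and 0% of all genes for Chd4 knockdown, 0% for Mbd3 knockdown and 0% for day. At an unadjusted p under 0.05 there were 6 members for Chd4 knockdown, 5 of them higher, beside 7.85% of all genes fitted. For Mbd3 knockdown there were 10 members, all higher, beside 4.99%, and for day 6 members, 5 of them lower at day 4, beside 15.2%. Cdkn1a had an estimate of 0.73 ± 0.14 (SE) for Chd4 knockdown with a limma adjusted p of 0.614, and 0.60 ± 0.14 for Mbd3 knockdown with a limma adjusted p of 0.837. A difference present at day 4 alone counts as error in this fit.

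Over 24 of 24 listed regulators (kinases, ligases, acetyltransferases and relatives of p53) the median difference from control was 0.10 in Chd4-knockdown and 0.09 in Mbd3-knockdown cells at day 4, and -0.03 and 0.09 at day 0. At day 4, 0 of them were 2-fold higher in either line and 1 was 2-fold lower, the kinase gene Hipk2 at -1.07 in Chd4-knockdown cells. By the 1.5-fold limit 3 were higher and 2 lower in each line: the deacetylase gene Sirt1 at 0.84 in both, Mdm2, Trp73, a relative of p53, at 0.74 in Chd4-knockdown and 0.69 in Mbd3-knockdown cells, Hipk2, and the ubiquitin ligase gene Cop1 at -0.62 and -0.67. These are 12.5% and 8.33% of the regulators. Of all genes, 7.08% were 1.5-fold higher and 9.62% lower in Chd4-knockdown cells, and 4.99% and 8.12% in Mbd3-knockdown cells. Mdm2, both a regulator and a target, had 737.9 in Chd4-knockdown and 804.3 in Mbd3-knockdown cells against 404.2 in control cells at day 4, and 785.6 and 1155.8 against 798.3 at day 0. It followed the course of many members, 0.87 and 0.99 above control at day 4 and 0.98 lower at day 4 than at day 0 in control cells. Of 22 further known targets outside the list, 18 were measured, with medians of 0.06 in Chd4-knockdown and 0.21 in Mbd3-knockdown cells at day 4. In Chd4-knockdown cells 3 of these were 2-fold higher, the ferrireductase gene Steap3 at 1.60, the phosphatase gene Ptpn14 at 1.15 and the mitotic gene Gtse1 at 1.01, and 2 were 2-fold lower, the secreted matrix gene Thbs1 at -2.36 and Trp53i11 at -1.84. In Mbd3-knockdown cells 3 were 2-fold higher, Ptpn14 at 1.41, Steap3 at 1.05 and the cytokine gene Lif at 1.01, and 2 were 2-fold lower, Thbs1 at -2.19 and Trp53i11 at -1.12. In each line these are 16.7% higher and 11.1% lower of the 18, beside the 2-fold shares of all genes given above. The medians of these 18 genes at day 4 thus lay closer to 0 than those of the 37 members.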

How the data were processed

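RNA from 6 cell samples, 1 per group, was hybridised to Affymetrix Mouse Gene ST arrays and analysed in GeneSpring GX 12.6.1, per the labels; RMA is named in the submitters' processing notes, and no genome build was found there. The deposited table holds 1 linear intensity per probe set and array, normalized by the authors, and no background or detection value. Of 34351 probe sets, 23521 had 1 gene symbol in the platform annotation, 1814 several and 9016 none; only the first kind was used. For the 1082 genes with several, the brightest on average was taken. Differences are of log2 intensity, with no filter and no further scaling. Calls at 2-fold (and 1.5-fold) were counted beside the same counts over all genes. Where the dimmer intensity was under the highest array median (41.4), folds are bounds against it. The additive fit used limma 3.58.1 in R 4.3.3 (lmFit, eBayes, Benjamini-Hochberg, adjusted p under 0.05) on genes with a mean at the median or above. Scripts ran in Python 3.11.15 and were tested on simulated data.

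The members, roles and lists were chosen with earlier results of these data known. Members were named with all 6 intensities if 2-fold different in any of 7 comparisons with control or between days, if among the 10 with the largest mean absolute difference from control, or if among the best-known targets. All 37 measured members matched RefSeq by gene ID and symbol. The gene of p53 itself is not reported here. Each array's lowest intensity was 17.4 to 17.6, so a constant may have been added to the deposited values, which no source states. Such a constant would shrink the printed differences and move the percentages of control towards 100, most of all for dim genes. The alternatives tried were subtracting 16 from each intensity, a floor at the highest array median, a filter on dim genes, centring of the arrays, and averaging probe sets. The number of arrays limits the precision.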

Additional observations from a re-analysis of the deposited data

Results flagged for a closer look

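Some values had opposite signs in 2 groups under the same contrast; with 1 array per group these differences were not tested. Cd80 was 1.54 (log2) higher at day 4 than at day 0 in Mbd3-knockdown cells but differed by -1.66 in control cells, where the day 4 value lies below the highest array median and the difference counts as at least 2.62-fold lower. Pmaip1 was 0.59 higher at day 4 in Chd4-knockdown cells and differed by -0.70 in control cells. The median over the 37 members of Chd4 knockdown minus control was 0.62 at day 4 and -0.028 at day 0. That of Chd4 knockdown minus Mbd3 knockdown was 0.081 at day 4 and -0.29 at day 0. The median of day 4 minus day 0 was 0.087 in Chd4-knockdown cells, against -0.24 in Mbd3-knockdown and -0.43 in control cells. The medians near 0 (-0.028, 0.081 and 0.087) are smaller than the shift of 0.1 that was counted as a move between settings.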

How the results depend on the processing

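The members' medians and 2-fold counts in the 7 comparisons with control or between days, and the calls of the additive fit, were recomputed under the alternatives, 114 values in all: 112 kept their direction and stayed within 0.1 (log2, for medians) or 1.5 times (for counts), 2 moved and 0 reversed. Many of these values could hardly change. Among the members, averaging probe sets could alter only Svop, the filter removed only Fas, and the floor touched only Fas, Svop and Cd80. Both values that moved came from subtracting 16 before the logarithm, which widens differences of dim genes by construction: 2 members, against 0, were then 2-fold higher in Mbd3-knockdown cells at day 0, and in Chd4-knockdown cells 1 member, against 0, reached 2-fold higher between the days. That setting also raised the number of all genes past 2-fold in Chd4 knockdown minus control to 2459, against 1610 at day 4, and to 399, against 169 at day 0. For Mbd3 knockdown minus control it gave 1809, against 1133, at day 4, and 276, against 91, at day 0. For day 4 minus day 0 it gave 751, against 383, in Chd4-knockdown, 703, against 361, in Mbd3-knockdown and 2669, against 1776, in control cells. For Chd4 knockdown minus Mbd3 knockdown it gave 340, against 148, at day 4, and 356, against 140, at day 0. The 1.5-fold counts, the medians of Chd4 knockdown minus Mbd3 knockdown, and the medians of the role groups, regulators and further targets were added after seeing the data: of 210 values, 202 held, 7 moved and 1 reversed. With 16 subtracted, the 1.5-fold counts in Chd4-knockdown cells were 2 lower, against 1, at day 4, and 4 higher, against 2, and 4 lower, against 2, at day 0. The same setting moved the median of the apoptosis genes in Mbd3-knockdown cells at day 0 to 0.47, that of the metabolism genes in Chd4-knockdown cells at day 4 to 0.71, and that of the genes of other roles at day 4 to 1.41 in Chd4-knockdown and 0.98 in Mbd3-knockdown cells. Averaging probe sets turned the median of the genes of other roles in Chd4-knockdown cells at day 0 to -0.023, against 0.014. The number of members above control at day 4 lay between 31 and 33 in Chd4-knockdown and between 30 and 32 in Mbd3-knockdown cells over these settings. The additive limma fit called 0 genes with 16 subtracted, with no filter and with centred arrays; the other settings were not run for it. No paired analysis was possible because each group holds 1 array and the labels number no replicates, and for the same reason none was left out in turn; day and line are terms of the additive fit. Signal limits Fas, below the highest array median in all arrays, for which no fold is given, and Svop, below it in some.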
